A study of Mus musculus with 3 samples.

Results

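The nuclear factor I genes Nfia, Nfib, Nfic and Nfix were examined in ATAC-seq peak lists of sorted mouse brain neurons. ATAC-seq marks accessible DNA by letting a transposase cut and tag it. The members were chosen by gene name, with a window of the gene body plus 50 kb on each side. The family was picked because Nfia held many more regions called in callosal neurons alone than in corticospinal neurons alone, so that excess is given as a description. The 4 windows held 291 of the 204313 accessible regions of the series, and the 4 genes are among 21887 protein-coding genes with such a window. CPN 1 and CPN 2 were libraries of callosal projection neurons, which connect the cerebral hemispheres. CSMN was a single library of corticospinal motor neurons, which project from cortex to spinal cord. All cells came from mouse brain by fluorescence-activated sorting, at 50000 cells per biological replicate. The sources used here do not state strain, genotype, age, sex or the labels used for sorting.

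Nuclear factor I proteins are transcription factors that bind DNA as dimers at the palindrome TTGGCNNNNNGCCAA and, more weakly, at a single arm of it such as TTGGCA. Nfia, Nfib and Nfix act in the developing forebrain, where they are required for normal formation of the corpus callosum and the hippocampus and for the switch of neural progenitors from making neurons to making glia. Nfic is best known for its requirement in tooth root formation.

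Peak lists held 134018 (CPN 1), 158779 (CPN 2) and 98067 (CSMN) peaks, and 72.4%, 65.4% and 55.2% of these reached a −log10 q of 5. The CSMN list was thus the shortest and had the smallest share of strong peaks, and the sources used here state no read totals. A region missing from a list can be closed, open in few of the sorted cells or under the caller's threshold, and these cannot be told apart. Peaks at gene ends did not separate cell types. Such a peak was called in all 3 libraries at 6 of 6 corticospinal marker genes, 5 of 5 excitatory and 5 of 5 interneuron markers. The microglia list had one at 3, 2 and 1 of 5 genes in CPN 1, CPN 2 and CSMN, the astrocyte list at 4, 5 and 4 of 6, and the oligodendrocyte lineage list at 5, 5 and 4 of 6. Callosal markers had one at 5, 5 and 4 of 6 genes and pan-neuronal markers at 4, 4 and 3 of 4, and all 4 endothelial and all 5 progenitor markers had one in every library. What part other cells had in the regions below was not tested.

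The start-site sequences below show how the regions sit on the family's annotated starts. Each is the 250 bases upstream of a transcript start in RefSeq (build GRCm38.p6, the assembly named mm10), written 5′ to 3′ on the strand of the transcript. In the Nfia, Gm11266 and Nfix sequences, capitals mark bases inside a region. In the Gm19417 sequence, which lies wholly inside a region, they mark the element TTGGCA.
Nfia, chr4:97581693-97581942, plus strand: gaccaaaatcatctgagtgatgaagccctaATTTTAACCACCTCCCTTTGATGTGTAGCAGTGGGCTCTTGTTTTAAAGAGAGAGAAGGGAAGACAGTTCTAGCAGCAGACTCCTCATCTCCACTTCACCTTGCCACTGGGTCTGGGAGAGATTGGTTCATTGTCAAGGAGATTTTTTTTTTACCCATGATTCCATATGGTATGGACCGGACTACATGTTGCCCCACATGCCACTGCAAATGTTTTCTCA
Gm19417, chr4:97869010-97869259, minus strand: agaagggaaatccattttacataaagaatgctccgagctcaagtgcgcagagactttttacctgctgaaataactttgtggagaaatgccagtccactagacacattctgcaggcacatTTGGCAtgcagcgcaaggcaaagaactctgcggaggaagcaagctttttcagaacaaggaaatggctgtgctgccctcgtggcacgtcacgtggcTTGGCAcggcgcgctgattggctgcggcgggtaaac
Gm11266, chr4:82507739-82507988, plus strand: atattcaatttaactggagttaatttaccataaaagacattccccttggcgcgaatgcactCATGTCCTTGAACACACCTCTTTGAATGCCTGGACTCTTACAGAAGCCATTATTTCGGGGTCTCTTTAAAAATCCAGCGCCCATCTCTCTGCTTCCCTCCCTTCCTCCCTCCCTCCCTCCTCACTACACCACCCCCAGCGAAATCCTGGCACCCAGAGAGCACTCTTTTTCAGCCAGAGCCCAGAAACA
Nfix, chr8:84780083-84780332, minus strand: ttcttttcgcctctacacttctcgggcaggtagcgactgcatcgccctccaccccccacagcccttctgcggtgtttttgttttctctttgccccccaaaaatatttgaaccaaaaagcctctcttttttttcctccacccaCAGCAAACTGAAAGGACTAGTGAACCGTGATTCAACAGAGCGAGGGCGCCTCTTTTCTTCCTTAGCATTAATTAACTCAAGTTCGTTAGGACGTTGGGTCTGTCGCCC
The Nfia window of bases shared 220 of 250 with a region called in all 3 libraries (chr4:97581723-97582274), with a CPN 1 fold of 4.23, a CPN 2 fold of 4.84 and a CSMN fold of 3.20. A fold is the authors' enrichment of a peak over its background, each library's own value, read here within its list. Gm19417 is a long non-coding RNA gene inside Nfia, and its 250 bases all lay in the region with the highest CPN 1 fold of the Nfia window. Gm11266 is a long non-coding RNA gene that begins just beyond the upper end of Nfib. Its start was covered by a region of both CPN lists that CSMN lacked, with 189 of 250 bases in chr4:82507800-82508000 at folds of 2.49 in CPN 1 and 2.47 in CPN 2. Of the 4 Nfix starts in the table, this one shared 108 bases with a region of all 3 libraries (chr8:84779649-84780190), and the other starts shared 0. The single Nfic start in the table (chr10:81427174-81427423) shared 0 bases, and the nearest region lay 2142 bp away. The table holds no Nfib promoter.

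Motif letters were counted on both strands of these 250 bases. TTGGCA was present 2 times upstream of Gm19417 and 0 times in the Nfia, Gm11266, Nfic and 4 Nfix windows, against 12.3% of 32817 mouse promoters that hold it. Of other starts near or inside Nfic, those of Smim24 and Gm16104 held it 1 time each. The whole palindrome was found in 0 of these sequences and in 0.0366% of all promoters. CCAAT occurred 1 time each upstream of Nfia, of Gm19417 and of the 3 Nfix starts not printed, and 33.8% of all promoters hold it. TTGGCA and CCAAT matches can overlap, since a reverse-strand CCAAT reads ATTGG. GC content was 44.8% upstream of Nfia, 51.2% at Gm19417, 49.2% at the Nfix start printed above and 63.2% at Nfic, against a median of 52.4%. These are matches of letters and say nothing of binding.

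Gene bodies differed greatly in length. Nfia (chr4:97578066-98118876) spans 540.81 kb, Nfib (chr4:82290173-82506751) 216.58 kb, Nfix (chr8:84704712-84801238) 96.53 kb and Nfic (chr10:81396191-81431919) 35.73 kb. The gene table gives bodies without exons, so exonic and intronic positions were not distinguished. The Nfia window held 97 peaks of CPN 1, 120 of CPN 2 and 57 of CSMN. At Nfib the counts were 50, 64 and 36, at Nfic 26, 29 and 19, and at Nfix 55, 62 and 39. Both CPN libraries had more peaks than CSMN at every member, as they did over the whole genome.

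Merged by any overlap, these peaks formed 126 regions at Nfia, 68 at Nfib, 31 at Nfic and 66 at Nfix. A peak from all 3 libraries was present in 50, 25, 14 and 31 of them, which is 39.7%, 36.8%, 45.2% and 47.0%, against 30.6% of all regions. CPN-only regions, which CPN 1 and CPN 2 both called and CSMN did not, numbered 35 at Nfia, 20 at Nfib, 10 at Nfic and 16 at Nfix. Their background over all regions was 19.4%, and the rule used this contrast. CSMN-only regions, which neither CPN library called, numbered 4, 3, 2 and 3, against a background of 11.8%. CPN-only regions therefore outnumbered CSMN-only ones at each paralog, as at Nfia. The same held at 80.2% of the 6461 protein-coding genes with at least 20 regions in such a window. Regions of a single CPN library numbered 9 for CPN 1 and 25 for CPN 2 at Nfia, and 12 and 22 over the other 3 members. Those 68 regions are part of how far the replicates disagreed in these windows, beside the 81 CPN-only regions of the family. Regions of CPN 1 alone were 7.22% and of CPN 2 alone 16.2% of the family, against 12.9% and 20.9% of all regions. Replicates also disagreed at 4 regions of CPN 1 and CSMN and 6 of CPN 2 and CSMN. These were 1.37% and 2.06% of the family, against 2.11% and 2.37% of all regions.

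**Figure D1:**
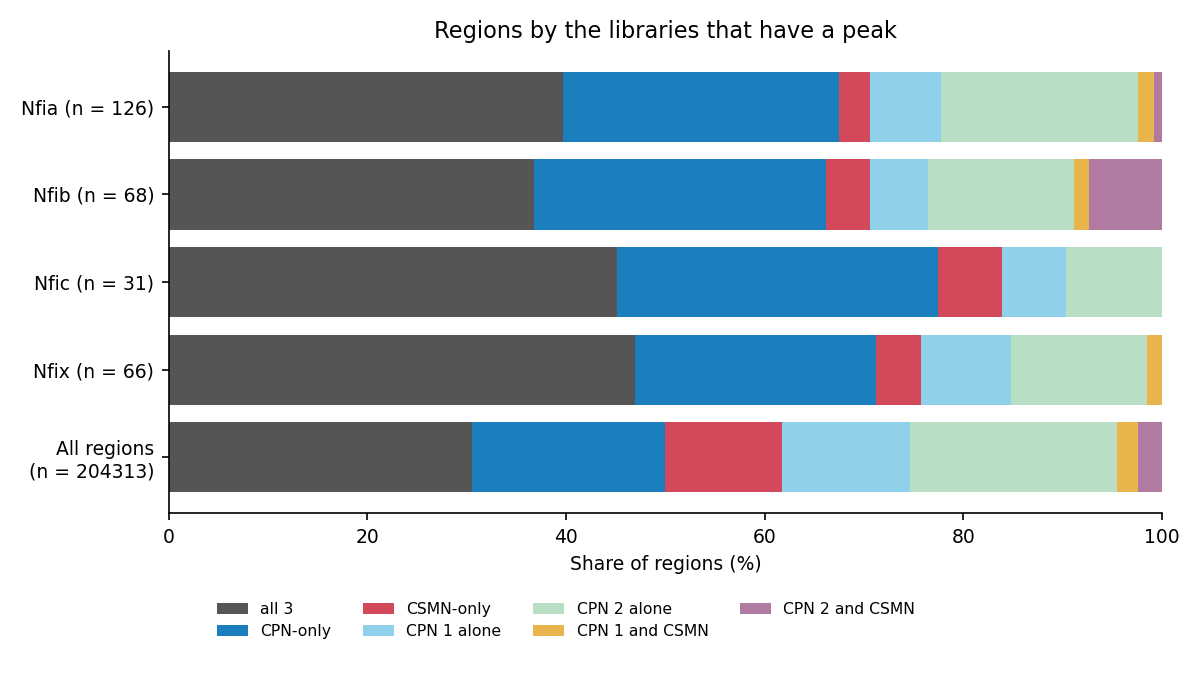
Share of regions (%) in each of the 7 classes of libraries with a peak, for the 4 gene windows and for all regions, with the number of regions beside each bar. Regions with a peak in all 3 libraries and CPN-only regions take larger shares in each family window than over all regions, and CSMN-only regions take between 3.17% (Nfia) and 6.45% (Nfic) against 11.8% over all regions.

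As shares, the values of Nfia and its paralogs lay close together. CPN-only regions made up 27.8% of the Nfia regions (Wilson 95% interval 20.7 to 36.2), 29.4% at Nfib (19.9 to 41.1), 32.3% at Nfic (18.6 to 49.9) and 24.2% at Nfix (15.5 to 35.8). Among CPN-only plus CSMN-only regions, the CPN-only share was 89.7% at Nfia (76.4 to 95.9), 87.0% at Nfib (67.9 to 95.5), 83.3% at Nfic (55.2 to 95.3) and 84.2% at Nfix (62.4 to 94.5). Pooled over the 3 paralogs it was 85.2%, so Nfia lay 4.56 percentage points above them, with an interval of the difference from -10.5 to 17.9. Over all regions the same share was 62.3%, and chromosome 4, which holds Nfia and Nfib, had 2632 CPN-only and 1755 CSMN-only regions. The intervals cover counting error only, neighbouring regions are not independent, and with 1 CSMN library no test between the cell types was made.

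Set against window length, CPN-only regions were sparsest at Nfia. There were 5.46 per 100 kb at Nfia, 6.32 at Nfib, 7.37 at Nfic and 8.14 at Nfix. Regions of any class showed Nfix apart from the rest, with 33.6 per 100 kb against 19.7 at Nfia, 21.5 at Nfib and 22.8 at Nfic. Nfix and Nfic windows also hold 8 protein-coding neighbours each, and those of Nfia and Nfib hold none.

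Among the 6461 protein-coding genes with at least 20 regions in the window, Nfia ranked 9 by the difference of CPN-only minus CSMN-only regions, which was 31. Nfib ranked 87 with a difference of 17, Nfix 208 with 13 and Nfic 748 with 8. By the percentage of CPN-only regions the order turned, with Nfic at rank 596, Nfib at 956, Nfia at 1230 and Nfix at 1883. The middle of that distribution was 19.2%, with quartiles of 13.3% and 25.5%. So Nfia, Nfib and Nfic lay above the upper quartile of genes, and Nfix between the median and it. Against the 322 genes with at least 60 regions, of which Nfia, Nfib and Nfix are 3, the CPN-only share of CPN-only plus CSMN-only regions had a median of 74.1% and an upper quartile of 83.3%, below the value of each of these members. Over the 5380 genes with at least 20 regions and at least 5 CPN-only plus CSMN-only ones, the median was 75% and the upper quartile 85.7%, which lay below Nfia and Nfib and above Nfix and Nfic.

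**Figure D2:**
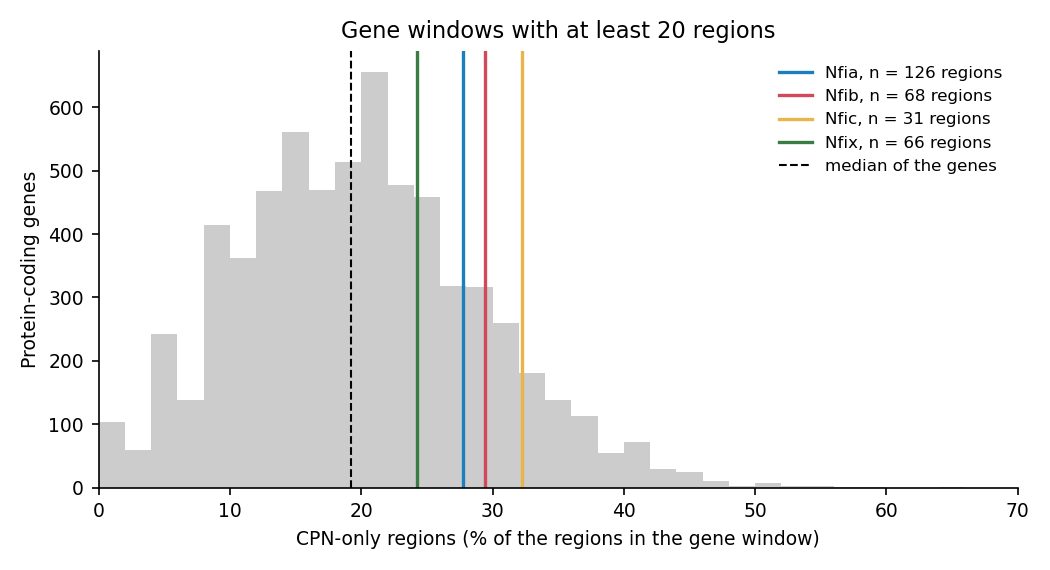
Number of protein-coding genes (vertical axis) by the percentage of CPN-only regions in the gene window (horizontal axis), for the 6461 genes with at least 20 regions, with the median of 19.2% dashed. Coloured lines mark Nfix at 24.2%, Nfia at 27.8%, Nfib at 29.4% and Nfic at 32.3%, all to the right of the median and within the body of the distribution.

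Length and strength of the lists bear on these shares and were measured. With the CPN lists shortened to the 98067 peaks of the CSMN list, the CPN-only share was 73.1% at Nfia, 61.5% at Nfib, 77.8% at Nfic and 64.7% at Nfix, against 41.9% over all regions. That value lay inside the intervals of Nfib (35.5 to 82.3) and Nfix (41.3 to 82.7). It lay below those of Nfia (53.9 to 86.3) and Nfic (45.3 to 93.7). Nfia was picked for this excess and the intervals cover counting error only, so its place is a description. With peaks of a −log10 q of at least 5 only, the CPN-only share was 97.4% at Nfia and 100% at each paralog, against 87.9% over all regions. Under that threshold the paralogs had 0 CSMN-only regions and Nfia 1, and the interval of each member included the value over all regions. The threshold also removes weak CSMN peaks, which adds CPN-only regions. On the full lists, the median share was 75% over the 5380 gene windows described above, against 62.3% over all regions. Gene windows were not recounted under either setting, so how far the members stood from other genes there was not measured.

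**Figure D3:**
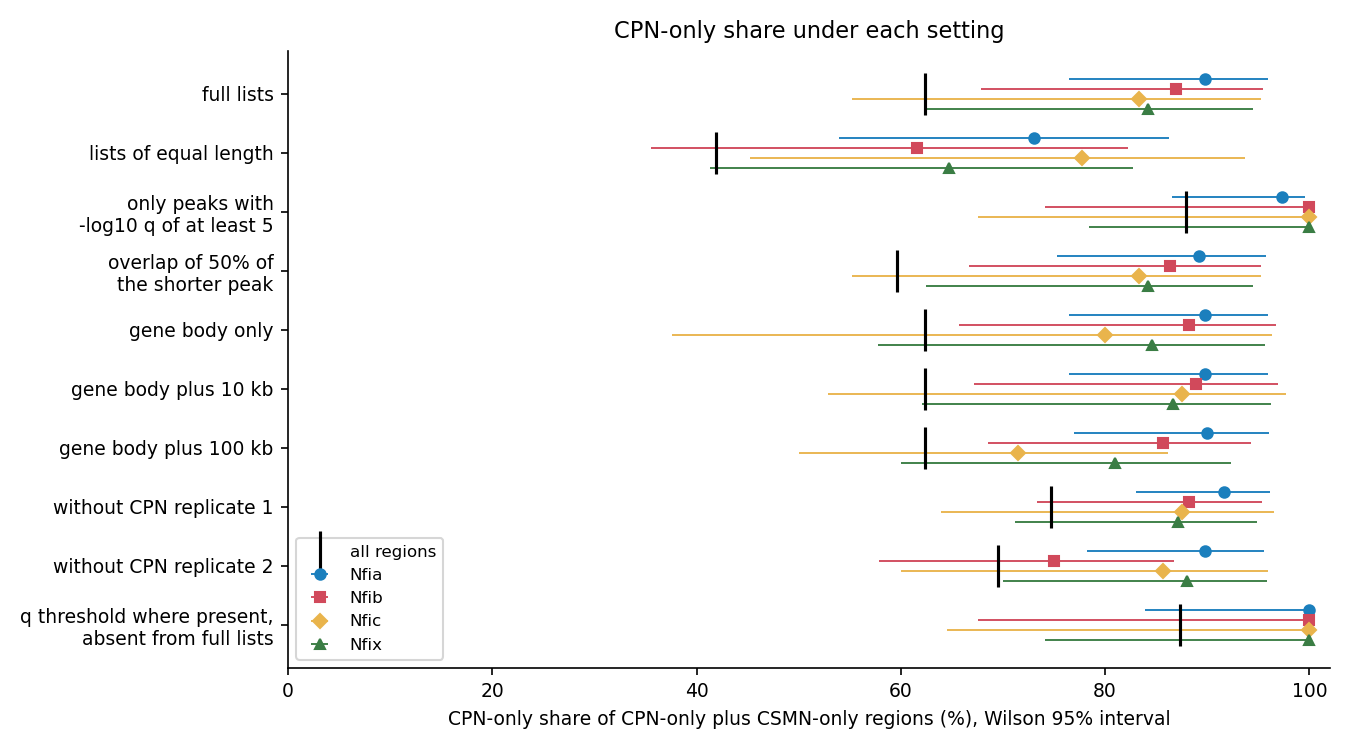
CPN-only share of CPN-only plus CSMN-only regions (%) for each member under the full lists and 9 other settings, with Wilson 95% intervals as lines and the value over all regions as a black bar. The intervals of the members overlap in each row. The black bar moves from 41.9% with lists of equal length to 87.9% with strong peaks only.

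In the Nfia window, CPN-only regions ran along the gene body. All 35 lay in the body, which held 116 of the 126 regions, and the 10 regions of the flanks had 0. CPN-only regions were 19.4% of all regions, so 10 flank regions are too few to show a stop at the gene ends. The next region below the window was CPN-only. In steps of 100 kb from 50 kb before the gene, the CPN-only counts were 5, 6, 8, 9, 5 and 2, with 0 beyond 550 kb. The 4 CSMN-only regions all fell between 250 and 450 kb. Elsewhere the flanks did hold CPN-only regions, with 5 of 20 at Nfib, 6 of 10 at Nfic and 5 of 16 at Nfix. Their flanks make up more of the window, and at Nfic and Nfix contain other genes.

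**Figure D4:**
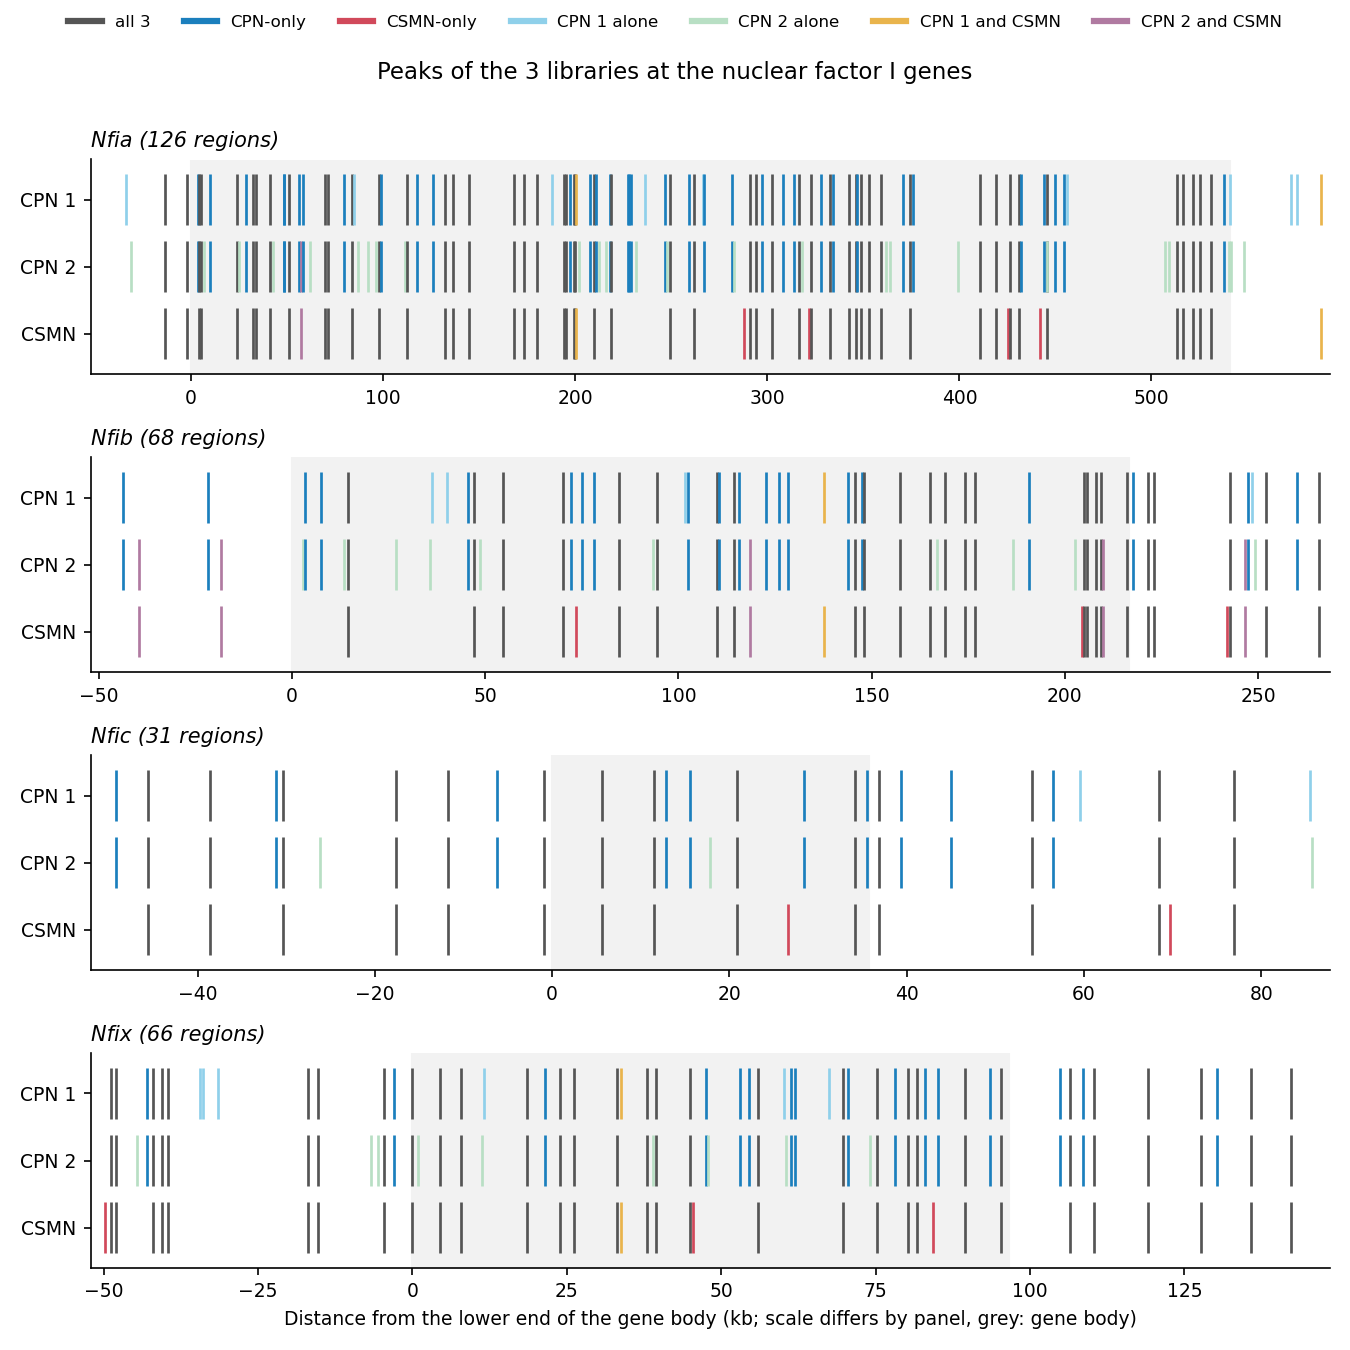
Position of each peak (kb from the lower end of the gene body; the scale differs by panel) in CPN 1, CPN 2 and CSMN at the 4 genes, coloured by the class of its region, with the gene body in grey. CPN-only regions (dark blue) spread over the Nfia body and are absent from its flanks, and the 4 CSMN-only regions (red) lie between 250 and 450 kb.

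At Nfia the 5 CPN-only regions with the highest lower CPN fold all lay well inside the gene body, the nearest 218.0 kb from its lower end. The strongest was chr4:97953882-97954243, 375.8 kb from that end, at 7.23 in CPN 1 and 8.40 in CPN 2. It was followed by chr4:97924464-97924754 at 6.99 and 7.06, and by chr4:97948266-97948687, which overlaps the end of the non-coding gene Gm40208, at 5.63 and 8.26. The CPN-only medians of the Nfia window were 3.56 in CPN 1 and 3.61 in CPN 2. The remaining pair was chr4:97796022-97796359 at 5.24 and 6.20 and chr4:97874873-97875491 at 4.73 and 5.69. Of the 35 CPN-only regions, 20 (57.1%) were strong in both CPN lists, with a −log10 q of at least 5, against 60.3% of all CPN-only regions.

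CPN-only regions of Nfib were weaker. Their median folds were 2.84 in CPN 1 and 3.02 in CPN 2, below 3.47 and 3.65 over all CPN-only regions, and 8 of 20 (40.0%) were strong in both lists. The leading one, chr4:82268333-82268694, lay below the gene at 4.86 and 4.53. Inside the body followed chr4:82415995-82416218 at 3.97 and 4.95, chr4:82392566-82392768 at 3.43 and 4.51, chr4:82335430-82335782 at 3.33 and 5.06, and chr4:82368240-82368375 at 3.26 and 4.14. In steps of 100 kb the Nfib counts were 5, 11, 3 and 1, so most lay between 50 and 150 kb from the lower end.

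The strongest CPN-only regions at Nfic lay mainly outside the gene. The leading one, chr10:81389838-81390098, shares 32 bases with the 250 upstream of Gm48552 and had folds of 7.10 in CPN 1 and 6.36 in CPN 2. On the other side of Nfic, chr10:81441162-81441291 reached 6.94 and 5.70, and chr10:81435413-81435738 reached 5.79 and 5.26. Neither overlaps an annotated gene, and both lie in a stretch of 16.8 kb without a CSMN peak (chr10:81433315-81450107). In the Nfic body the highest was chr10:81408785-81409320 at 4.06 and 6.27, and the fifth, chr10:81346848-81347050 at 3.28 and 3.87, lies in Hmg20b. Of the 10 regions at Nfic, 7 were strong in both lists.

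Among the CPN-only regions described at Nfix, chr8:84813166-84813294 in the upper flank had the highest folds, at 4.33 in CPN 1 and 4.14 in CPN 2, and overlaps no annotated gene. In the Nfix body the highest were chr8:84758923-84759370 at 3.33 and 3.68, chr8:84766363-84766893 at 3.28 and 3.41, and chr8:84787613-84787869 at 2.84 and 3.39. Of the 16 regions, 11 (68.8%) were strong in both lists. CPN-only regions of the Nfix body therefore had lower folds than the leading ones of Nfia, in each CPN list.

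The 12 CSMN-only regions of the family were all weak. None reached a −log10 q of 5, against 14.4% of all CSMN-only regions (3463 of 24009). At Nfia they were chr4:97865645-97865812 and chr4:98019874-98020009 at a CSMN fold of 2.34 each, chr4:98003479-98003622 at 2.24 and chr4:97899535-97899676 at 2.08. The highest −log10 q among them was 3.03. Nfib had chr4:82494590-82494755 at 2.02, chr4:82363705-82363829 at 1.996 and chr4:82531983-82532144 at 1.89. Nfic had chr10:81422550-81423005 at 2.48 and chr10:81465764-81465967 at 2.04, and Nfix had chr8:84750066-84750332 at 2.74, chr8:84654752-84654980 at 2.34 and chr8:84788918-84789067 at 1.94. The 2 strongest, in the Nfic and Nfix bodies, reached a −log10 q of 4.75 and 4.77, just under the threshold for a strong peak. No replicate of CSMN exists to show whether these regions recur.

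CPN-only regions were narrower than those of all 3 libraries at each member. Median widths were 268 bp against 574.5 bp at Nfia, 222 against 510 at Nfib, 365.5 against 794.5 at Nfic and 245.5 against 635 at Nfix. The same order held over all regions, at 283 bp against 566 bp. CSMN-only regions were narrower still, from a median of 143 bp at Nfia to 330 bp at Nfic.

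Some stretches of the genes carried regions of the CPN lists alone. They were picked among the stretches between CSMN peaks for their CPN-only counts, and are a description. The CSMN list was the shortest, and how often such stretches occur at other genes was not measured. In Nfia, 30.3 kb without a CSMN peak (chr4:97796770-97827092) held 7 regions, of which 4 were CPN-only, 1 was of CPN 1 alone and 2 were of CPN 2 alone. A longer gap of 67.5 kb near the distal end (chr4:98023796-98091291) held 6 regions, of which 2 were CPN-only. It includes 51.2 kb with no region in any library (chr4:98034047-98085232). At Nfib, 18.9 kb (chr4:82408832-82427720) held 3 regions, all CPN-only. At Nfix, 10.03 kb (chr8:84750333-84760361) held 4 regions, 3 of them CPN-only.

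A region of all 3 libraries lay within 1 kb of the outer start of Nfic and Nfix and of 1 end of Nfib, whose strand the tables do not hold. The lower end of Nfib had no region, and at its upper end lay chr4:82505237-82507405, a region of 2169 bp at 6.85 (CPN 1), 7.90 (CPN 2) and 6.30 (CSMN). At Nfic 2 such regions flanked the start, chr10:81429565-81431251 at 4.19, 4.38 and 3.64 and chr10:81432778-81433314 at 9.57, 9.03 and 6.19, with the CPN-only region chr10:81431528-81431813 between them at 2.51 and 2.49. At Nfix it was chr8:84799164-84800757, at 4.69, 4.06 and 2.79. Nfia had no region within 1 kb of its outermost start, and the annotated start inside the body was covered as described with its sequence. So the CPN-only region at the Nfic start stood between shared ones.

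The strongest shared regions of Nfia lay inside the gene. The highest CPN 1 fold was 12.68 at chr4:97868364-97869452, the Gm19417 start, with 13.82 in CPN 2 and 6.15 in CSMN. CPN 2 peaked at 15.47 in chr4:97745487-97746345, where CPN 1 had 11.51 and CSMN 6.51. The CSMN maximum was 8.88 in chr4:97771905-97772618, where the CPN libraries had 11.53 and 15.12. At Nfib 1 region held the maximum of each list, chr4:82512804-82513627, just above the gene, at 13.47, 15.91 and 9.56. The maxima of the Nfic and Nfix windows lay at the starts of neighbouring genes. Inside the gene bodies, Nfic had 9.32, 8.75 and 4.58 at chr10:81416563-81417432, and in the CPN lists Nfix was highest at chr8:84773868-84774909, with 9.11 and 11.13 beside 3.91 in CSMN. The CSMN maximum of the Nfix body was 4.65, at chr8:84708779-84709503.

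Folds of different lists were not set against each other directly, since the median over all peaks was 3.82 for CPN 1, 3.68 for CPN 2 and 2.86 for CSMN. In their place, the 62435 regions of all 3 libraries were ranked by fold in each library, from 0 for the strongest to 100 for the weakest. A region was counted as lower in CSMN where its CSMN rank stood at least 20 points further down than both CPN ranks, which holds for 8.55% of these regions, and as higher in the opposite case, which holds for 7.73%. At Nfia 7 of 50 (14.0%) were lower and 4 (8%) higher. At Nfib 2 of 25 were lower and 0 higher, at Nfic 0 of 14 lower and 1 higher, and at Nfix 4 of 31 (12.9%) lower and 1 higher. These small counts lie near the background and are no result about the members.

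The median of CSMN rank minus mean CPN rank was 6.33 points at Nfia, with quartiles of -8.63 and 16.6, 2.35 at Nfib, 3.46 at Nfic and -2.42 at Nfix. Over all such regions it was -0.32. CPN 1 and CPN 2 differed from each other by a median of 8.06 points at Nfia, 6.43 at Nfib, 1.61 at Nfic and 3.49 at Nfix. The CSMN rank was the weaker at 29 of 50 regions of Nfia, 14 of 25 of Nfib, 11 of 14 of Nfic and 11 of 31 of Nfix, against 48.6% of all such regions.

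**Figure D5:**
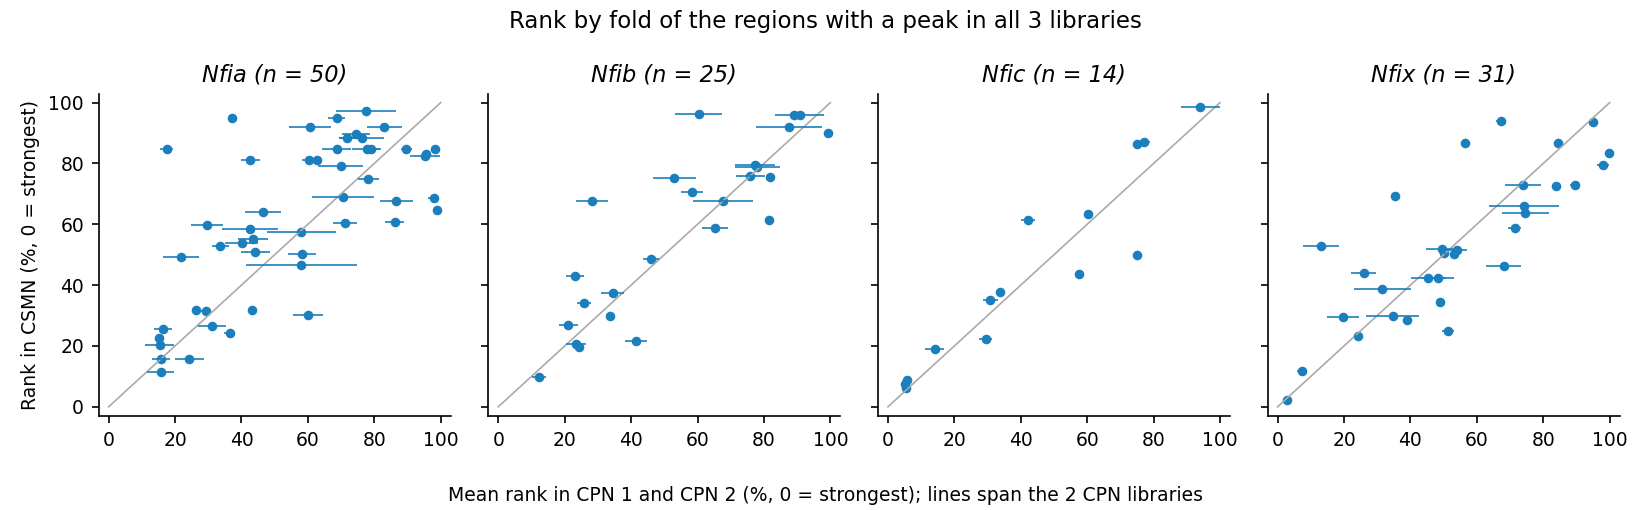
Rank by fold in CSMN (vertical axis, %, 0 = strongest) against the mean rank in CPN 1 and CPN 2 (horizontal axis, %, 0 = strongest) for the regions of all 3 libraries at each gene, with horizontal lines spanning both CPN ranks and the diagonal marking equal rank. Points lie on both sides of the diagonal at each gene, and a few Nfia, Nfib and Nfix regions lie well above it, such as the Nfia region at a CSMN rank of 84.8 with CPN ranks of 19.5 and 15.6.

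A few shared regions stood far from the diagonal in both CPN libraries. Below Nfia, chr4:97564326-97565018 ranked 19.5 in CPN 1 and 15.6 in CPN 2 but 84.8 in CSMN, with folds of 11.56, 13.30 and 2.52. In the distal body, chr4:97996759-97997545 ranked 37.4 and 36.8 against 94.9, with folds of 7.84, 8.15 and 2.26. In the other direction, chr4:97777609-97778047 ranked 64.4 and 55.6 in the CPN libraries and 30.2 in CSMN. At Nfib, chr4:82555590-82556249 in the upper flank ranked 32.9 and 23.4 against 67.6, and chr4:82455016-82455345 in the body ranked 53.3 and 67.5 against 96.3. At Nfix, chr8:84823689-84823965 in the upper flank ranked 18.4 and 7.60 against 53.0. The region over the printed Nfix start ranked 56.2 and 56.7 against 86.7, and chr8:84793554-84794860, in the part of the body nearest the outer start, ranked 35.1 and 35.9 against 69.2. The region of Nfic counted as higher in CSMN was the one at its start, chr10:81429565-81431251, at 75.2 and 74.6 against 49.8. These regions were picked for their ranks, which are a description.

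The mix of classes was compared between genes. Likeness was the sum of absolute differences in the shares of the 7 classes, over 3 libraries, where 0 is an equal mix. Nfia lay 18.9 points from Nfib, 21.2 from Nfix and 26.5 from Nfic, and its median over 6460 genes was 46.0. For Nfib, Nfix and Nfic the distances to other members ran from 18.9 to 27.7, and their medians were 51.4, 49.6 and 57.7. Genes with few regions have coarse shares, which lengthens distances, and the classes for which Nfia was picked enter the measure, so these distances are a description. The 3 nearest genes were Map1b (7.74), Scaf8 (9.25) and Arsg (9.25) for Nfia, and Zdhhc21 (8.24), Csad (10.6) and Trim66 (11.1) for Nfib. They were Gga1 (3.11), Fgfr3 (7.07) and Top2a (8.50) for Nfic, and Pkmyt1 (3.90), Trit1 (5.40) and Cuedc1 (6.06) for Nfix.

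Factors that act with or upstream of nuclear factor I were read in the same window. The list held Sox9, Zbtb20, Pou3f2, Ski, Pax6, Sox2 and Atf3. Together they had 67 CPN-only and 21 CSMN-only regions, a CPN-only share of 76.1%, and CPN-only regions were the more numerous at 6 of the 7, as they were at 80.2% of the 6461 genes with at least 20 regions. Zbtb20, a zinc finger repressor with roles in hippocampal and glial development, had the largest difference with 32 against 6 in 114 regions. Sox2, a factor of neural progenitors, had 9 against 2, and Ski, a transcriptional corepressor, had 9 against 3. Sox9, which induces Nfia at the onset of gliogenesis, had 2 against 0 and Pou3f2 had 1 against 2. All 7 had a peak at a gene end in every library. CPN-only regions made up a median of 25.7% of the regions of these genes, against 19.2% over the 6461 genes. The listed genes were not held to the minimum of 20 regions, and Pou3f2 had 9, Sox9 17 and Atf3 19. The pooled CPN-only share of the 4 members, 87.1%, stood beside marker lists with 87.5% for excitatory, 86.7% for microglia, 85.7% for endothelial and 81.6% for progenitor genes. Lower shares were found for pan-neuronal (81.4%), oligodendrocyte lineage (79.4%), astrocyte (78.8%) and interneuron (78.3%) genes. Corticospinal markers had 75.3% and callosal markers 74.6%, the lowest of the marker lists.

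Reported targets of the family gave a share of 74.1%, with 60 CPN-only and 21 CSMN-only regions over 14 genes. Of these, 10 had more CPN-only regions, 1 had more CSMN-only regions and 3 had equal numbers, against 80.2%, 13.02% and 6.78% of the 6461 genes. Hes1, an effector of Notch signalling, had 7 against 0. Insc, an adaptor of spindle orientation, had 9 against 2, Zcchc24 had 11 against 4 and Slc1a3, an astrocyte glutamate transporter, had 7 against 1. Ezh2, the methyltransferase of Polycomb repressive complex 2, went the other way with 0 against 5. The glial target Gfap had a gene-end peak in CPN 2, at a fold of 2.77, and in neither of the other lists. Gabra6, a GABA receptor subunit of cerebellar granule cells, had none in any. The median percentage of CPN-only regions over the targets was 16.6%, under the gene median of 19.2%. The targets were likewise not held to the minimum of 20 regions. Several fell below it, such as Gabra6 with 2, Ezh2 with 10 and Gfap with 18. Gene-end peaks were called at 12 of the 14 targets in CPN 1, 12 in CPN 2 and 11 in CSMN. Sox9, Pax6, Sox2, Hes1, Gfap and Slc1a3 also stand in the marker lists of astrocytes or progenitors.

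The limit of 50 kb fell in sparse sequence at Nfia and in dense sequence at Nfic. The last region inside the Nfia window lay 33.7 kb below the gene, in CPN 1 alone at 3.12, and the next outside it lay 91.4 kb away, CPN-only at 4.16 and 4.24. Above the gene they lay at 47.5 and 62.8 kb. For Nfib they lay at 43.6 and 63.2 kb below and at 48.8 and 60.2 kb above. For Nfic they lay at 49.1 and 52.8 kb below and at 49.9 and 50.4 kb above, where the region outside was of all 3 libraries at 6.42, 6.95 and 4.28. For Nfix they lay at 49.7 and 54.1 kb below and at 45.3 and 55.6 kb above.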

How the data were processed

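ATAC-seq peak lists of 2 CPN libraries and 1 CSMN library were used, grouped by sample title. MACS2 2.2.7.1, BWA 0.7.17, bedtools 2.29.2 and the build mm10 are listed in the submitters' processing notes, with no role for each. The sources used here do not state read filters, the transposase shift, the caller's mode or read totals, and depth is unknown. Peak names in each deposited list carry 1 library name, so peaks were taken as called per library by the authors. The deposited lists give a fold enrichment, a −log10 p, a −log10 q (from 1.30), a score equal to 10 times the −log10 q cut to a whole number, and a summit offset in bp (other). Each is the authors' value.

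Peaks were merged at an overlap of at least 1 bp with Python 3.11.15 and pandas 2.3.3, and bedtools 2.31.1 gave the same 204313 regions. Regions were classed by library, assigned to RefSeq gene bodies of GRCm38.p6 plus 50 kb, and shares given with Wilson 95% intervals, which cover counting error only. On simulated data, 5000 of 5000 planted regions were classed as planted. All 73 entries of the gene lists (67 genes) matched by symbol. The table gives no strand; strands came from RefSeq promoters, and for Nfib both gene ends were read. No test between cell types was possible with 1 CSMN library, and no p-value was computed.

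The members, lists, the rank threshold of 20 points and the minimum of 20 regions were chosen with earlier results of these data known. Named regions were the start region of each member, up to 5 CPN-only and CSMN-only regions by lower CPN fold or CSMN fold, and the shared region with the highest fold in each list, apart from the Nfix region not reported here. From the lists of partners and targets, up to 6 genes with the largest difference between CPN-only and CSMN-only regions were named, with a tie for the last place kept, and Sox9, Pou3f2, Ezh2, Gfap and Gabra6 were added after their values were seen, as were the regions named for their ranks, the regions highest within the Nfic and Nfix bodies and the stretches. Alternatives were list length, q threshold, overlap, window and each CPN replicate left out. The searched DNA was limited to promoters in the RefSeq table, and the regions themselves were not searched. One marker gene is likewise not reported here.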

Additional observations from a re-analysis of the deposited data

How the results depend on the processing

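Of 47 alternative values, 37 stayed within the counting interval or spread of the value reported, the shared regions at a gene start or end of 3 of 4 members among them. With lists of equal length the share was 73.1% at Nfia and 61.5% at Nfib. With only peaks of a −log10 q of at least 5 it was 97.4% at Nfia, 100% at Nfib, 100% at Nfic and 100% at Nfix. The 1 CSMN-only region of Nfia under this setting came from removing weak CPN peaks. Removing weak CSMN peaks likewise added CPN-only regions, which numbered 37 at Nfia, 11 at Nfib, 8 at Nfic and 14 at Nfix. In another alternative, chosen after seeing the data, that threshold applied where a peak was present and absence was read from the full lists. The share was then 100% at each of the 4 members, from 20, 8, 7 and 11 CPN-only regions and 0 CSMN-only regions. These shares are at or near their ceiling, against 87.9% and 87.4% over all regions, which lie within the members' intervals. Leaving out CPN 1 or CPN 2 gave 89.8% to 91.7% at Nfia, 75% (without CPN 2) to 88.2% at Nfib, 85.7% to 87.5% at Nfic and 87.1% to 88.0% at Nfix, against 74.7% and 69.6% over all regions. Nfia minus its paralogs ranged from 4.01 to 8.11 points over these, and was -2.63 with peaks of a −log10 q of at least 5. No paired analysis was possible, because the sample titles record no pairing of CPN and CSMN libraries and there is 1 CSMN library. Unknown depth and 1 CSMN library limit every absence from the CSMN list.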

Other observations

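Other genes in the Nfic and Nfix windows had the highest folds there. At Nfix, the start of Calr, which encodes an endoplasmic reticulum chaperone, reached 21.55 in CPN 1, 22.00 in CPN 2 and 14.20 in CSMN (chr8:84846491-84847475). Nacc1, a transcriptional regulator, reached 10.22, 13.55 and 5.12 at a gene end. The immediate early gene Ier2 had 7.69, 7.75 and 5.27. At Nfic, the shared start region of Dohh, which encodes deoxyhypusine hydroxylase, and Gm48551 reached 18.80, 19.63 and 11.26 (chr10:81384007-81384827), and Fzr1, an activator of the anaphase-promoting complex, 19.23, 19.46 and 10.47 (chr10:81378086-81379129). Hmg20b had 18.31, 19.28 and 9.89, and Mfsd12 had 12.39, 15.33 and 6.81. All of these regions were called in the 3 libraries. The gene Gm48552, between Dohh and Nfic, had a CPN-only region as its sole gene-end region, at 7.10 in CPN 1 and 6.36 in CPN 2. Gm16104, a long non-coding RNA gene inside Nfic, likewise had only CPN-only regions at its ends. Of the genes named here, Hmg20b, Mfsd12 and Ier2 also had a CPN-only region at a gene end, beside shared ones. Windows of Nfia and Nfib hold no other protein-coding gene, with 6 long non-coding RNA genes and 2 pseudogenes at Nfia and 1 long non-coding RNA gene and 1 other RNA gene at Nfib.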
